A study of Mus musculus with 9 samples.

Results

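The genes described here are 8 receptors of the tumour necrosis factor (TNF) receptor superfamily, chosen by name from the table of transcript levels: Tnfrsf4 (OX40), Tnfrsf9 (4-1BB), Tnfrsf18 (GITR), Cd27, Tnfrsf25 (DR3), Tnfrsf1b (TNFR2), Tnfrsf1a (TNFR1) and Fas. They are 8 of the 41978 genes in the table, and each passed the filter on low values. Their levels were measured by RNA-seq in 9 samples of semi-mature CD4 single-positive (SP4) thymocytes from Nur77-eGFP BAC Tg mice. All samples carry this transgene, a bacterial artificial chromosome in which regulatory DNA of Nr4a1 (Nur77) drives eGFP, so that green fluorescence reports recent T cell receptor (TCR) signaling, and all were sorted as live CD25-, CD69+, CD24+, CD4+, CD8- cells. They differ in reporter level: GFPlo, GFPmed and GFPhi each hold about 10% of the gated cells, with 10000 cells sorted per sample and 3 biological replicates per group. The groups are therefore slices of one population rather than treated and untreated mice. Ages of the individual mice are not given in the sources used here.

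Receptors of this superfamily bind trimeric ligands of the TNF family. Tnfrsf4, Tnfrsf9, Tnfrsf18, Cd27 and Tnfrsf1b have no death domain and recruit TRAF adaptors, which feed the canonical and noncanonical NF-kB pathways and provide costimulation to T cells. Tnfrsf1a, Tnfrsf25 and Fas carry a death domain in their cytoplasmic tail, and Fas and Tnfrsf1a can trigger caspase-8. In the thymic medulla, OX40, GITR and TNFR2 are known for their part in the maturation of regulatory T cell (Treg) precursors that have met self-antigen.

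The 8 genes lie on 3 chromosomes of the GRCm38 build. Tnfrsf1b (chr4:145213463-145246870, minus strand), Tnfrsf9 (chr4:150914562-150946102, plus strand), Tnfrsf25 (chr4:152115934-152120119, plus strand), Tnfrsf4 (chr4:156013843-156016612, plus strand) and Tnfrsf18 (chr4:156026164-156028895, plus strand) are all on chromosome 4, with 9551 bases between Tnfrsf4 and Tnfrsf18. Cd27 (chr6:125232622-125237010, minus strand) and Tnfrsf1a (chr6:125349362-125362484, plus strand) are both on chromosome 6, and Fas (chr19:34290666-34327772, plus strand) is on chromosome 19. To show the DNA in front of genes that moved together, the 250 bases before a RefSeq transcript start (build GRCm38.p6) are given for 4 chromosome 4 receptors, restricted to windows that hold no annotated exon of the gene. They are written 5′ to 3′ on the strand of the gene, and capitals mark a match to a searched motif. The windows are chr4:156013445-156013694 for Tnfrsf4, chr4:145246871-145247120 (minus strand) for Tnfrsf1b, chr4:152115684-152115933 for Tnfrsf25, and chr4:150919905-150920154 for Tnfrsf9, the last inside the annotated gene but outside its exons.
Tnfrsf4: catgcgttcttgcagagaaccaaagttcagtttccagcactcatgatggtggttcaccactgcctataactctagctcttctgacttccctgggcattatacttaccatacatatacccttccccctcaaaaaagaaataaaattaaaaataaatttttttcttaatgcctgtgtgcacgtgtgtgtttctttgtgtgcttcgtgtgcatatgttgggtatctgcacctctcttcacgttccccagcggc
Tnfrsf1b: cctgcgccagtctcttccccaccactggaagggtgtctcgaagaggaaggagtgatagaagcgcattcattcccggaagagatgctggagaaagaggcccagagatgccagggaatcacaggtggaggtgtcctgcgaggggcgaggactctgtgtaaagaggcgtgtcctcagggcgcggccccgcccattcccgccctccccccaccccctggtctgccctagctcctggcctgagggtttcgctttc
Tnfrsf25: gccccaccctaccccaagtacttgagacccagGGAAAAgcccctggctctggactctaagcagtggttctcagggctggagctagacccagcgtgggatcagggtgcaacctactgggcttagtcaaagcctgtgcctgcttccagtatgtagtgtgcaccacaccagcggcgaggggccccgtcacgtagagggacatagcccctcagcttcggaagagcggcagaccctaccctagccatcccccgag
Tnfrsf9: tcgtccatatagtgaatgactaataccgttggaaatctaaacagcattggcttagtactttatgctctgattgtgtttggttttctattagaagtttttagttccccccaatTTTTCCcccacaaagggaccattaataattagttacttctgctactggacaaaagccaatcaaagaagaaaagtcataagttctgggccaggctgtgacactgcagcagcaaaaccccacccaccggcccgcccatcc

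The motifs searched on both strands were the NBRE core bound by Nr4a factors (AAGGTCA), the AP-1 site (TGANTCA, which reads the same on both strands), the NFAT core (TTTTCC) and the NF-kB consensus. The NBRE core was in the window of 0 of the 8 receptor genes and in 4.08% of all 32851 RefSeq promoter windows of this length. The NFAT core was in windows of 4 of the 8 genes (Tnfrsf9, Tnfrsf18, Tnfrsf25 and Cd27), against 20.4% of all windows. The AP-1 site was in windows of 2 genes (Tnfrsf9 and Fas), against 6.75% of all windows, and the NF-kB consensus in windows of 2 genes (Tnfrsf9 and Tnfrsf25), against 7.25%. The Tnfrsf25 window with the NF-kB match, chr4:152116093-152116342, lies inside the gene, overlaps an exon and is not the one printed. The second RefSeq start of Tnfrsf9, whose window chr4:150927749-150927998 overlaps an exon of the gene and is not printed whole, held the overlapping NF-kB matches GGGGATTTCC and GGGATTTCCC and an AP-1 match, TGAGTCA, from 15 to 9 bases before the start. A gene was counted if any of its windows matched, and some genes have several windows, whereas the percentages are per window, so these are unlike measures. The matches describe letters only and say nothing of binding in these cells.

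The depth of the samples, solved from the deposited values, ran from 7465552 to 14943774 reads. Each member had at least 29 reads in each sample. Nr4a1 itself, the gene behind the reporter, rose from 217 ± 32.1 TPM (SD, n = 3; GFPlo) through 374 ± 28.6 (GFPmed) to 840.1 ± 75.01 (GFPhi). The deposited unit is TPM, a read count per gene length scaled to the same total in each sample. Its gene lengths included introns (the implied length equalled the mean span of the transcripts, within 0.1%, for 97.0% of 20121 protein-coding genes), so TPM serves to compare samples. Levels of different genes are compared below as reads over exonic length and library total (exonic RPKM).

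Because these are bulk samples, more cells that express a receptor and more receptor RNA per cell cannot be told apart. Of 6 SP4 thymocyte markers (Cd3e, Cd4, Cd24a, Cd69, Ccr7, Lck), 0 were called higher or lower between GFPhi and GFPlo. Cd69, a marker of the sort gate, stood at 375 ± 48.5 TPM in GFPlo and 216 ± 28.7 in GFPhi without overlap (log2 fold change -0.79, adjusted p = 0.0142 from limma), under the limit of 1 log2 unit that the calls below use. The summed level of the 6 was 3620 to 4200.2 TPM in GFPlo and 3270.1 to 3760 TPM in GFPhi. Treg markers moved with the reporter in spite of the CD25- gate: 3 of 6 were called higher in GFPhi than in GFPlo (Foxp3 from 6.75 to 15.7 TPM, Il2ra from 0.665 to 9.73 and Ikzf4 from 6.53 to 40.5), Lrrc32, Gpr83 and Capg did not pass, and their summed level ran from 106 to 116 TPM in GFPlo, 131 to 184 in GFPmed and 193 to 216 in GFPhi. None of the 6 was at 0 in any sample. Of 5 measured markers of DP or CD8 thymocytes, 4 were tested, and Cd8a and Dntt were called lower in GFPhi. The summed level of the 5 was 53.8 to 56.7 TPM in GFPlo and 25.3 to 32.4 in GFPhi. Of 5 measured markers of NKT or gamma-delta T cells, 4 were tested, and Il2rb was called higher and Sox13 lower. Zbtb16, which defines NKT cells, was under the filter, with 10 to 77 reads and at most 0.203 TPM per sample. Of 6 B cell markers 5 were tested, and of 6 myeloid or dendritic cell markers 4 were tested, with 0 called in either list. Of 5 measured thymic epithelial markers 3 were tested, and Epcam was the 1 called (from 2.79 to 8.78 TPM). As TPM here divides by lengths with introns, the TPM of Zbtb16 and the sums over marker lists serve only to compare samples. The part of these cell types in the receptor results was not tested.

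**Figure D1:**
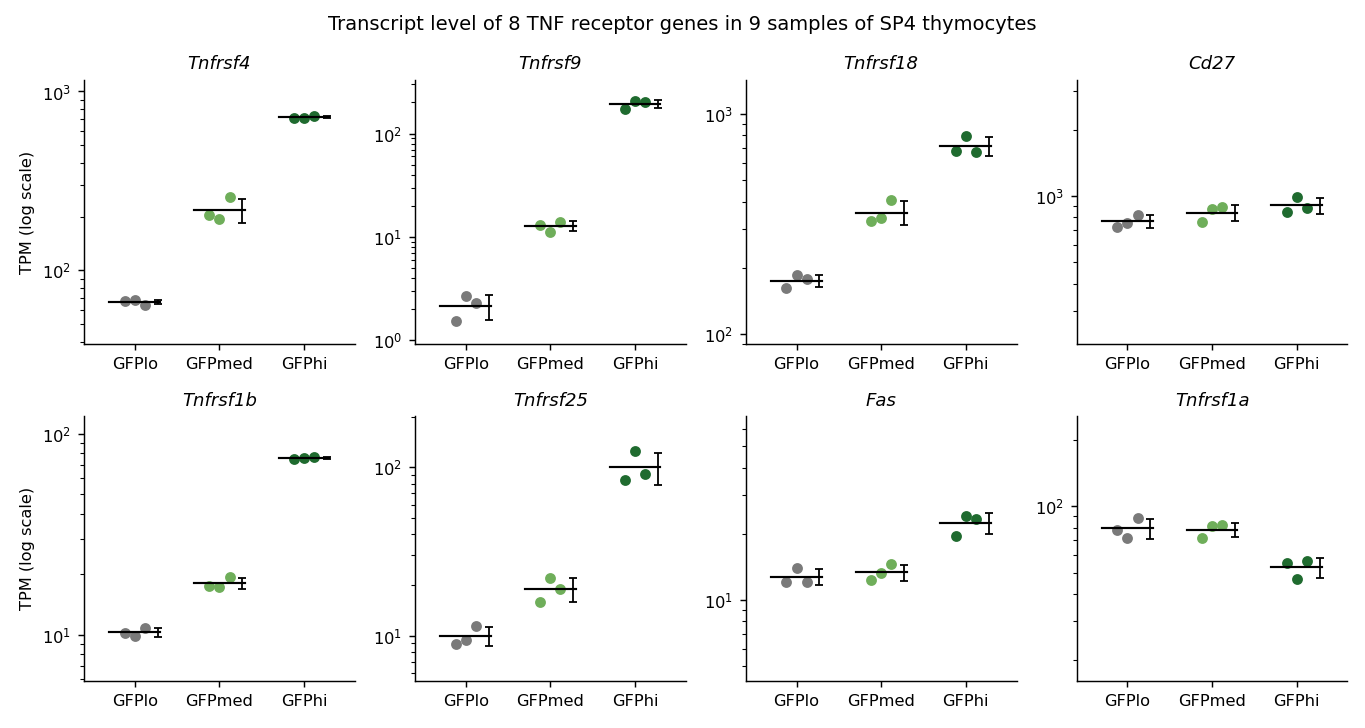
TPM (log scale, own range in each panel) of the 8 receptor genes in GFPlo, GFPmed and GFPhi. Each point is a sample, the line is the mean and the error bar the SD of 3 samples. In the panels of Tnfrsf4, Tnfrsf9, Tnfrsf18, Tnfrsf1b and Tnfrsf25 the groups form 3 rising steps without overlap, Fas is higher and Tnfrsf1a lower in GFPhi alone, and Cd27 is nearly level.

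The first comparison asks which of these receptors differ between SP4 thymocytes with the most and the least reporter signal. Tnfrsf9, Tnfrsf4, Tnfrsf25, Tnfrsf1b and Tnfrsf18 were higher in GFPhi, by between 4.10-fold and 89.4-fold in mean TPM. Fas, Cd27 and Tnfrsf1a did not meet the calling rule. It asks of limma on log2(TPM + 1) for a change of at least 1 log2 unit either way and an adjusted p no higher than 0.05, after Benjamini-Hochberg correction over 30693 genes. Thus 5 of the 8 members were called higher, where 1.26% of all genes tested were, and 0 were called lower, where 0.404% were. The median log2 fold change of the 8 was 2.40, and that of all genes tested was -0.09. The number of members called stayed at 5 with each other normalization, filter and test tried and without each sample in turn.

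Among the costimulatory receptors, Tnfrsf9 changed the most. 4-1BB is an inducible receptor that marks T cells shortly after antigen recognition. Its level was 1.53, 2.69 and 2.29 TPM in the GFPlo replicates, 13.0, 11.3 and 14.1 TPM in GFPmed, and 174, 207 and 202 TPM in GFPhi. The groups did not overlap, and each GFPhi sample stood far above each GFPmed sample. GFPhi exceeded GFPlo by 5.96 log2 units (standard error 0.17, limma adjusted p = 6.59e-06), rank 2 among the 387 genes called higher. The GFPlo level rested on 31 to 68 reads per sample, against 5237 to 5890 in GFPhi. In exonic RPKM it was 2.13 ± 0.578 (SD, n = 3), between the 90th (1.78) and the 99th (3.91) percentile of 1403 olfactory and vomeronasal receptor genes, which thymocytes are not known to use.

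Tnfrsf4 encodes a costimulator that sustains survival of activated CD4 T cells. It stood at 67.5, 68.3 and 64.5 TPM in GFPlo, at 204, 193 and 257 TPM in GFPmed, and at 712, 715 and 727 TPM in GFPhi. The coefficient of variation was 2.97% in GFPlo and 1.08% in GFPhi, and the replicates of GFPmed spread more (15.5%), with GFPmed replicate 3 the highest. The rise from GFPlo to GFPhi was 10.8-fold in mean TPM, or 3.41 log2 units (standard error 0.10, limma adjusted p = 7.74e-06).

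Tnfrsf18, its neighbour on chromosome 4, encodes GITR, a receptor abundant on Treg cells and induced in other T cells by activation. It was already well expressed in GFPlo, at 162, 184 and 177 TPM. It reached 326, 337 and 407 TPM in GFPmed and 681, 795 and 672 TPM in GFPhi. The groups did not overlap, and the gene stood 2.03 log2 units higher in GFPhi than in GFPlo (standard error 0.11, limma adjusted p = 9.21e-05). The antisense gene Gm16008 shares 414 exonic bases with Tnfrsf18 and rose with it (from 41.05 to 168 TPM, log2 fold change 2.01, adjusted p = 6.49e-05 from limma). The library kit does not mark strand, so reads from the 2 genes cannot be told apart where they overlap.

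Tnfrsf1b encodes the TNF receptor that signals costimulation through TRAF2 and is prominent on Treg cells. Its values were 10.2, 9.82 and 10.9 TPM in GFPlo, 17.5, 17.4 and 19.4 TPM in GFPmed, and 74.6, 76.3 and 76.4 TPM in GFPhi. The groups did not overlap, and the GFPhi samples differed little (coefficient of variation 1.32%). From GFPlo to GFPhi it rose by 2.77 log2 units (standard error 0.09, limma adjusted p = 9.95e-06).

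Cd27, the costimulator that T cells carry from thymic development onward, was the most abundant of the 8 in GFPlo. It gave 724, 757 and 821 TPM in GFPlo, 762, 869 and 889.7 TPM in GFPmed, and 849, 990.4 and 879 TPM in GFPhi. GFPmed overlapped both other groups, while the lowest GFPhi sample stood just above the highest GFPlo sample. The difference of 0.24 log2 units between GFPhi and GFPlo (standard error 0.09, limma adjusted p = 0.252) met neither part of the calling rule. An exact permutation test of the ordered trend over every assignment of the samples to groups (two-sided, 8 genes tested) gave p = 0.0262 for Cd27. With 3 samples per group, its statistic rests on GFPhi minus GFPlo alone, so the place of GFPmed does not enter it. The exact test gave p = 0.13 with median-of-ratios scaling, and p ran from 0.0571 to 0.0839 when GFPlo replicate 1, GFPlo replicate 2 or GFPhi replicate 2 was left out.

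The death-domain receptors went different ways. Tnfrsf25, which binds the ligand encoded by Tnfsf15 and costimulates T cells despite its death domain, rose the most of them. It had 8.96, 9.42 and 11.3 TPM in GFPlo, 15.9, 21.9 and 18.8 TPM in GFPmed, and 84.0, 125 and 90.9 TPM in GFPhi. The groups did not overlap, although GFPhi replicate 2 stood apart from the other two (coefficient of variation 22.1%). It rose by 3.20 log2 units from GFPlo to GFPhi (standard error 0.18, limma adjusted p = 0.000138), on 29 to 42 reads per GFPlo sample and 377 to 569 per GFPhi sample. Its GFPlo level, 1.86 ± 0.229 exonic RPKM (SD, n = 3), also lay between the 90th (1.78) and the 99th (3.91) percentile of the olfactory and vomeronasal receptor genes.

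Fas, the death receptor for Fas ligand, had 12.1, 13.9 and 12.1 TPM in GFPlo, 12.3, 13.3 and 14.5 TPM in GFPmed, and 19.5, 24.1 and 23.2 TPM in GFPhi. GFPlo and GFPmed overlapped, and each GFPhi sample was above both. The difference of GFPhi from GFPlo was 0.76 log2 units (standard error 0.13, limma adjusted p = 0.0175), past the limit on p and under that on the fold change. The exact permutation test of trend gave p = 0.00595 for Fas. As its statistic sets GFPhi against GFPlo, it does not show an order of GFPlo and GFPmed.

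Tnfrsf1a, the TNF receptor that assembles the TRADD and RIPK1 complex, was the 1 member with a lower mean in GFPhi. It stood at 78.4, 71.7 and 88.6 TPM in GFPlo, 71.8, 81.3 and 82.1 TPM in GFPmed, and 55.1, 46.6 and 56.5 TPM in GFPhi. GFPlo and GFPmed overlapped, and each GFPhi sample was below both. The difference of GFPhi from GFPlo was -0.58 log2 units (standard error 0.11, limma adjusted p = 0.0294), again under the limit on the fold change. The exact permutation test of trend gave p = 0.0119 for Tnfrsf1a, which likewise does not show an order of GFPlo and GFPmed. On the adjusted p alone, whatever the size of the change, 7 of the 8 members passed in this comparison, against 3.89% of all genes tested. For Fas and Tnfrsf1a this depended on the setting: Fas passed on p in 12 of 19 alternative fits (highest adjusted p = 0.157, with median-of-ratios scaling) and in 5 of 9 without 1 sample, and Tnfrsf1a in 7 of 19 (highest adjusted p = 0.345 from limma, with the same scaling) and in 1 of 9.

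**Figure D2:**
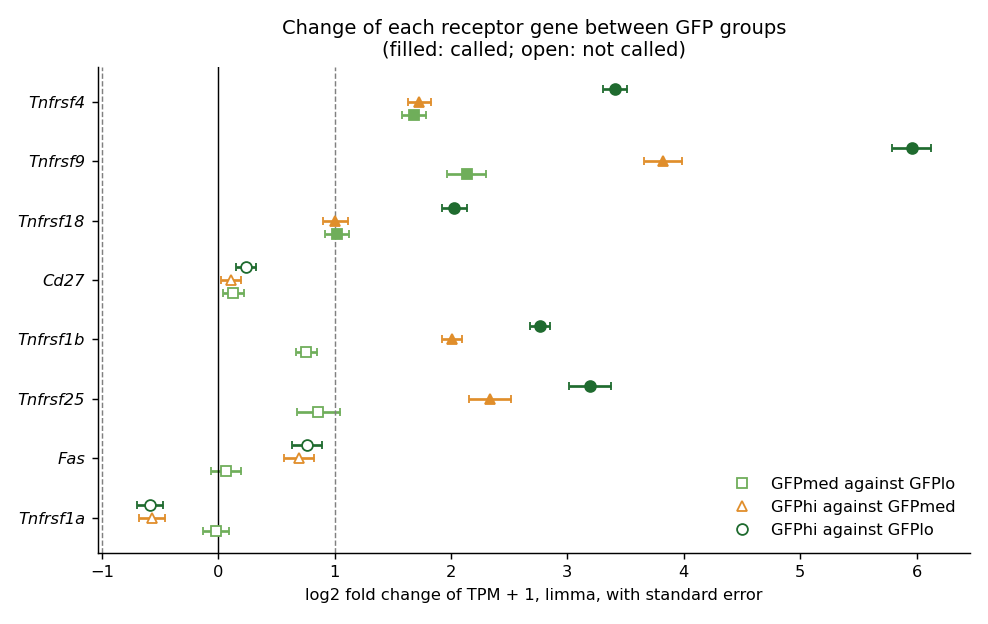
Log2 fold change of TPM + 1 (horizontal axis) for each receptor gene in the 3 comparisons of groups, with the standard error from limma as the bar. Filled symbols met the calling rule and open symbols did not, and the dashed lines mark a log2 fold change of 1 in either direction. For Tnfrsf4 and Tnfrsf18 the symbols of the lower and upper comparison nearly coincide, whereas for Tnfrsf9, Tnfrsf1b and Tnfrsf25 the upper one lies to the right of the lower one.

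The second comparison asks which receptors had already moved at an intermediate reporter level. Between GFPmed and GFPlo, Tnfrsf9 (log2 fold change 2.13, adjusted p = 0.00912 from limma), Tnfrsf4 (1.68, adjusted p = 0.00345) and Tnfrsf18 (1.02, adjusted p = 0.0317) were called higher. These are 3 of the 8 members, where 0.0554% of all genes tested (17 genes) were called higher. The Tnfrsf4 call held under each alternative. The Tnfrsf18 and Tnfrsf9 calls did not: with the replicate number as a block 1 member remained, with adjusted p = 0.121 for Tnfrsf18 and 0.069 for Tnfrsf9 from limma, and leaving out 1 sample left between 1 and 3 members. Without GFPlo replicate 3, GFPmed replicate 1 or GFPmed replicate 3, 1 member was called, and Tnfrsf18 kept its call only when the sample left out was GFPhi replicate 2. Tnfrsf1b (log2 fold change 0.76, adjusted p = 0.0435) was under the limit on the fold change, and Tnfrsf25 (0.86, adjusted p = 0.42) did not pass on p, although neither gene's groups overlapped. Fas (0.07), Cd27 (0.13) and Tnfrsf1a (-0.02) had adjusted p = 1 from limma.

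The third comparison sets GFPhi against GFPmed. The 5 members called against GFPlo were called here too, where 0.541% of all genes tested were called higher: Tnfrsf9 (log2 fold change 3.82, adjusted p = 0.000144 from limma), Tnfrsf25 (2.33, adjusted p = 0.00149), Tnfrsf1b (2.01, adjusted p = 0.000144), Tnfrsf4 (1.73, adjusted p = 0.000397) and Tnfrsf18 (1.01, adjusted p = 0.00483). Both comparisons use the same GFPhi samples. Tnfrsf18 sat at the limit on the fold change and dropped out when GFPmed replicate 1, GFPmed replicate 2 or GFPhi replicate 2 was left out (log2 fold change 0.94, 0.97 and 0.93), with quantile normalization (0.93) and with median-of-ratios scaling (adjusted p = 0.118 from limma). The log2 fold changes of the others were 0.70 for Fas (adjusted p = 0.0472 from limma), -0.57 for Tnfrsf1a (adjusted p = 0.0601) and 0.11 for Cd27 (adjusted p = 0.800).

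The members reached different shares of their change at the intermediate level. GFPmed stood at 0.49 of the log2 change from GFPlo to GFPhi for Tnfrsf4 and 0.50 for Tnfrsf18, at 0.36 for Tnfrsf9, and at 0.27 for both Tnfrsf1b and Tnfrsf25. The median of the 387 genes called higher between GFPhi and GFPlo was 0.32, with quartiles of 0.18 and 0.45. On the linear TPM scale the shares were 0.34 for Tnfrsf18, 0.23 for Tnfrsf4, 0.12 for Tnfrsf1b, 0.099 for Tnfrsf25 and 0.055 for Tnfrsf9. A test of the difference between the upper and the lower step called 0 members, where 0.0195% of all genes tested (6 genes) were called. The largest differences on the log2 scale were those of Tnfrsf9 (1.69 ± 0.29, standard error, adjusted p = 0.253 from limma), Tnfrsf25 (1.47 ± 0.32, adjusted p = 0.491) and Tnfrsf1b (1.25 ± 0.15, adjusted p = 0.102), whose unadjusted p-values were 0.000403, 0.00178 and 3.94e-05 from limma. At an unadjusted p below 0.05, 5 members passed, as did 5.02% of all genes tested. Limma-voom with library totals called 1 member, Tnfrsf1b, and 0.351% of all genes (107).

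The exact permutation test of the ordered trend gave p = 0.00119, the smallest value it can give, for each of Tnfrsf4, Tnfrsf9, Tnfrsf18, Tnfrsf1b and Tnfrsf25. In these 5 genes the 3 groups rose in order without overlap, as they did in 1.67% of all genes tested. GFPhi and GFPlo did not overlap in any of the 8 members, as in 18.2% of all genes tested. An exact test of 3 samples against 3 cannot go below p = 0.1, and it gave that value for each of the 8 members between GFPhi and GFPlo.

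**Figure D3:**
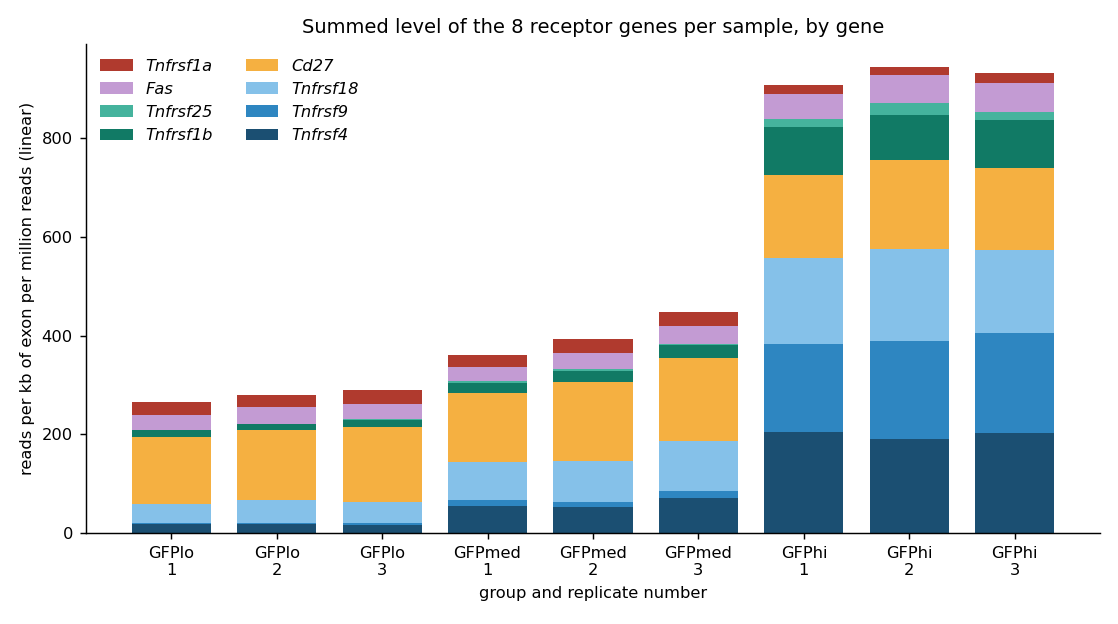
Exonic RPKM (linear scale) of the 8 receptor genes stacked for each of the 9 samples, labelled by group and replicate number. The summed level is 266 to 291 in GFPlo, 360.2 to 448 in GFPmed and 907 to 943 in GFPhi, and the Cd27 segment changes from the majority of each GFPlo bar to a smaller part of each GFPhi bar.

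The order of the receptors by exonic RPKM changed with the reporter level. In GFPlo, Cd27 led with 143 ± 8.62 (SD, n = 3), followed by Tnfrsf18 (42.6 ± 2.72), Fas (31.2 ± 2.604), Tnfrsf1a (26.95 ± 2.80), Tnfrsf4 (18.4 ± 0.609), Tnfrsf1b (12.8 ± 0.618), Tnfrsf9 (2.13 ± 0.578) and Tnfrsf25 (1.86 ± 0.229). Fas and Tnfrsf1a overlapped, as did Tnfrsf9 and Tnfrsf25, while the other neighbours in this order did not. In GFPmed, Cd27 (156 ± 15.8) still led, ahead of Tnfrsf18 (86.7 ± 12.5) and Tnfrsf4 (59.8 ± 10.4), and Tnfrsf1a and Tnfrsf1b (26.5 ± 2.44 and 22.3 ± 1.83) overlapped. In GFPhi, Tnfrsf4 (199.9 ± 7.88), Tnfrsf9 (192 ± 12.2), Tnfrsf18 (176 ± 10.8) and Cd27 (171 ± 7.34) stood close together, each overlapping the next. Tnfrsf1b (95.1 ± 2.87) and Fas (55.2 ± 4.37) followed, and Tnfrsf25 (18.9 ± 3.40) and Tnfrsf1a (18.1 ± 2.44) overlapped at the end. Tnfrsf18 shares 414 exonic bases with Gm16008, and Cd27 shares 129 with the microRNA gene Mir8113. How reads from shared bases were counted was not examined. The places of Tnfrsf18 and Cd27 in this order, and the shares below, carry that limit.

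As a share of the summed exonic RPKM of the 8 genes, Cd27 took 51.3% ± 1.08 (SD, n = 3) in GFPlo, 39.1% ± 1.82 in GFPmed and 18.4% ± 0.542 in GFPhi. Tnfrsf9 went from 0.761% ± 0.189 to 3.13% ± 0.323 and 20.8% ± 1.00, and Tnfrsf4 from 6.60% ± 0.468 to 14.9% ± 1.30 and 21.6% ± 1.22. The share of Tnfrsf18 was highest in GFPmed (21.6% ± 0.851), against 15.3% ± 0.698 in GFPlo and 19.0% ± 1.02 in GFPhi. Together Tnfrsf4, Tnfrsf9, Tnfrsf18 and Tnfrsf1b made up 27.2% ± 0.887 of the sum in GFPlo and 71.6% ± 0.696 in GFPhi. A share falls when other members rise, so the fall of Cd27's share is no fall of its level.

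**Figure D4:**
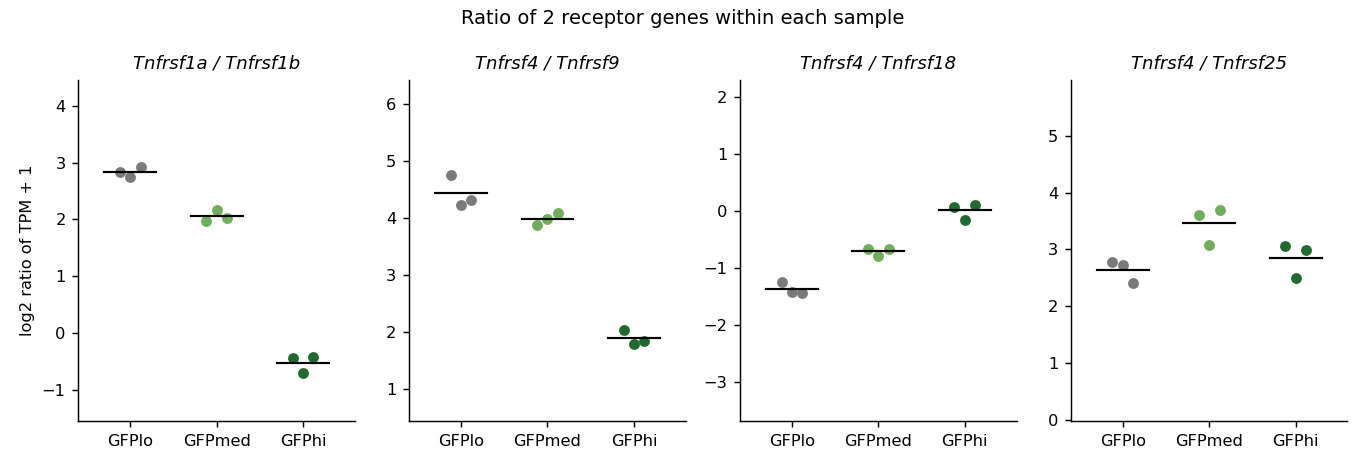
Log2 ratio of TPM + 1 of 2 receptor genes in each sample (points) with the group mean (line), for 4 of the 28 pairs. Each panel spans 6 log2 units. The ratio of Tnfrsf1a to Tnfrsf1b falls at each step, that of Tnfrsf4 to Tnfrsf9 drops mainly between GFPmed and GFPhi, that of Tnfrsf4 to Tnfrsf18 rises at each step, and that of Tnfrsf4 to Tnfrsf25 is highest in GFPmed. TPM here divides by lengths with introns, so only changes of a ratio between groups can be read.

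Ratios of 2 members were taken within each sample, on TPM + 1, so that scaling between samples enters only through the added 1, which also draws the ratios of a gene as low as Tnfrsf9 in GFPlo toward 0. As TPM here divides by lengths with introns, only the change of a ratio between groups can be read. Its level, and the side of 0 on which it falls, does not show which gene has more RNA. Of the 28 pairs, 26 passed the exact permutation test of trend (p of 0.05 or less). With assignments kept within replicate numbers, 23 passed. The pairs share genes, so these passes are not independent of each other. The change of a log2 ratio from GFPlo to GFPhi is the difference between the log2 fold changes given above for its 2 genes. The count thus largely restates those unequal changes. The share of other gene pairs that pass was not computed. The statistic of this permutation test sets GFPhi against GFPlo, so some pairs that passed were not in order over the 3 groups. The log2 ratio of Tnfrsf18 to Tnfrsf1b, for example, was 3.96 in GFPlo, 4.22 in GFPmed and 3.22 in GFPhi (exact permutation p = 0.044). Between the TNF receptors, the log2 ratio of Tnfrsf1a to Tnfrsf1b went from 2.83 ± 0.08 (SD, n = 3) in GFPlo to 2.06 ± 0.10 in GFPmed and -0.52 ± 0.16 in GFPhi (exact permutation p = 0.00119). Both receptors bind TNF and lymphotoxin alpha, and in exonic RPKM Tnfrsf1a was the higher in GFPlo (26.95 against 12.8) and Tnfrsf1b in GFPhi (95.1 against 18.1). The neighbours Tnfrsf4 and Tnfrsf18 changed unequally, with a log2 ratio of -1.37 ± 0.11 in GFPlo, -0.71 ± 0.08 in GFPmed and 0.01 ± 0.14 in GFPhi (exact permutation p = 0.00119). The log2 ratio of Tnfrsf4 to Tnfrsf9 was 4.43 ± 0.28, 3.98 ± 0.11 and 1.89 ± 0.13 (exact permutation p = 0.00119). Tnfrsf4 against Tnfrsf25 (exact permutation p = 0.581) and Tnfrsf4 against Tnfrsf1b (exact permutation p = 0.0583) did not pass. In both pairs the log2 ratio was highest in GFPmed, at 3.46 ± 0.33 and 3.51 ± 0.13.

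Tnfrsf4 and Tnfrsf18 are neighbours of each other and were both called, and the antisense gene Gm16008, described above, also met the calling rule. No tested protein-coding neighbour outside the members met it. Of 35 other protein-coding genes within 100 kb of a member, 29 were tested and 0 were called between GFPhi and GFPlo by limma. Their median log2 fold change was 0.03, and the largest in absolute value was 1.09, a rise of Espn beside Tnfrsf25. At an adjusted p of at most 0.05 without the limit on the fold change, 5 of the tested neighbours passed, where 3.89% of all genes tested did in either direction. They were C1qtnf12, Sdf4, Cd9, Ncapd2 and Stambpl1, each higher in GFPhi (log2 fold change 0.39 to 0.95). Vamp1, which lies across Cd27 on the opposite strand with no shared exonic base, had 98.3 TPM in GFPlo and 103 TPM in GFPhi (log2 fold change 0.06, adjusted p = 0.904 from limma). Camta1, on the opposite strand to Tnfrsf9 with no shared exonic base, was under the filter on TPM (0.659 TPM in GFPlo and 0.531 in GFPhi). It had 176 to 380 reads per sample, over a length that includes introns.

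The genes whose pattern over the 9 samples was most like a member's were found by Pearson's r of log2(TPM + 1), as a description over 3 groups that themselves set most of each r. For Tnfrsf4 they were Gm16008 (r = 0.995), Shisa5 (r = 0.995) and Tnfrsf18 (r = 0.995). For Tnfrsf18 they were Gm16008 (r = 0.996), Tnfrsf4 (r = 0.995) and Cd6 (r = 0.993), an inhibitory partner of the TCR complex. Tnfrsf9 was closest to Lad1 (r = 0.999), which rose from 1.199 to 204 TPM, followed by Smc4 (r = 0.997) and Parp8 (r = 0.997). Tnfrsf1b was closest to Smc4 (r = 0.997), the Treg-associated factor Ikzf4 (r = 0.997) and Il2ra (r = 0.996), the gene of CD25, and Tnfrsf25 to Mapre2 (r = 0.996), Lgals1 (r = 0.995) and Parp8 (r = 0.995).

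**Figure D5:**
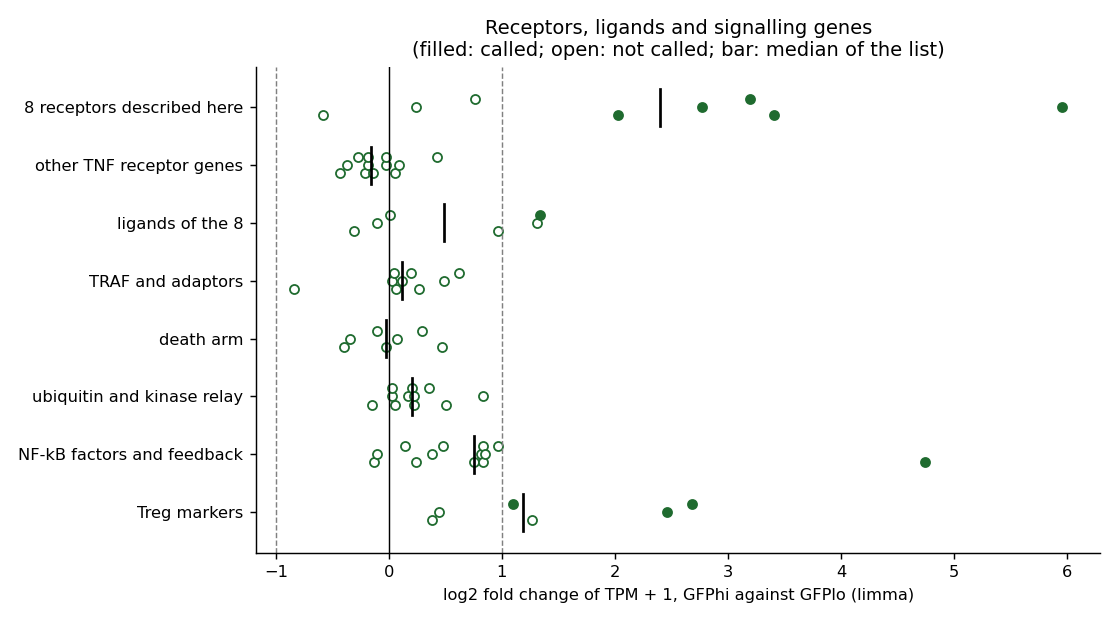
Log2 fold change of TPM + 1 between GFPhi and GFPlo for the tested genes of 8 lists, with called genes filled, others open and the list median as a bar. Dashed lines mark a log2 fold change of 1 in either direction. Most filled points are in the row of the 8 receptors and that of the Treg markers, and the other receptor, adaptor, death and relay rows hold none.

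The rest of the superfamily and its pathway were examined in the same fit. Of 20 other TNF receptor superfamily genes, 12 passed the filter and 0 were called in any comparison by limma, and their log2 fold changes from GFPlo to GFPhi had a median of -0.16. The highest of these by exonic RPKM were Tnfrsf13b (25.4 ± 1.61 in GFPlo, 25.1 ± 1.03 in GFPhi) and Relt (22.5 ± 0.835 and 19.6 ± 0.588), with log2 fold changes of -0.03 and -0.21 in TPM + 1. At an unadjusted p of less than 0.05, 3 of the 12 passed between GFPhi and GFPlo, where 13.8% of all genes tested did.

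Of the 8 ligand genes of the members, 6 were tested and 1 was called. Lta, encoding lymphotoxin alpha, a ligand of Tnfrsf1a and Tnfrsf1b, rose with the reporter (58.0 ± 5.31 TPM in GFPlo, 81.1 ± 4.10 in GFPmed and 148 ± 19.2 in GFPhi; GFPhi against GFPlo log2 fold change 1.33, adjusted p = 0.000774 from limma). Tnf, which encodes the other ligand of these receptors, stood at 36.7 ± 3.44, 38.9 ± 2.75 and 29.3 ± 1.71 TPM (log2 fold change -0.31, adjusted p = 0.182). Fasl, the ligand of Fas, had 1.24 ± 0.451 TPM in GFPlo and 4.52 ± 0.735 in GFPhi (log2 fold change 1.31, adjusted p = 0.0534 from limma). Tnfsf4, the ligand of OX40, was at 0.202 ± 0.231 TPM in GFPlo and 1.32 ± 0.127 in GFPhi, with 1 to 58 reads per sample (log2 fold change 0.97, adjusted p = 0.0253), under the limit on the fold change. Tnfsf9, the ligand of 4-1BB, was at 8.83 ± 1.72 and 8.14 ± 1.90 TPM (log2 fold change -0.11, adjusted p = 0.903), and Tnfsf15 at 2.27 ± 1.31 and 2.13 ± 0.375 TPM (0.01, adjusted p = 0.997). Tnfsf18 and Cd70, the ligands of GITR and CD27, were under the filter, with mean levels of 0.450 and 0.396 TPM in GFPlo and 0.447 and 0.342 TPM in GFPhi.

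Between receptor and NF-kB, few genes were called. Among 9 TRAF and receptor adaptor genes 0 were called in any comparison (median change from GFPlo to GFPhi 0.12 log2 units), among 7 tested genes of the death arm 0 (median -0.03), and among 11 genes of the ubiquitin and kinase relay 0 (median 0.20). Of these 27 genes, 11 had an unadjusted p of less than 0.05 between GFPhi and GFPlo in limma, where 13.8% of all genes tested did. On the adjusted p alone, the adaptor gene Traf4 passed as lower in GFPhi (log2 fold change -0.84, adjusted p = 0.00239 from limma). The relay gene Birc3 passed as higher (0.83, adjusted p = 0.00203 from limma). Of 13 NF-kB factors and feedback genes, 1 was called, with a median log2 fold change of 0.75. On the adjusted p alone 7 of the 13 passed, all higher in GFPhi, where 3.89% of all genes tested passed in either direction. The 1 called was Bcl3, an atypical member of the IkB family that binds p50 and p52 dimers, which rose from 3.64 ± 1.39 TPM in GFPlo to 16.6 ± 2.58 in GFPmed and 120.1 ± 13.1 in GFPhi, or by 4.74 log2 units (standard error 0.23, limma adjusted p = 6.49e-05). Bcl3 was also called between GFPmed and GFPlo (1.96, adjusted p = 0.0482 from limma) and between GFPhi and GFPmed (2.79, adjusted p = 0.00185). Against these lists, the median change of all genes tested from GFPlo to GFPhi was -0.09 log2 units.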

How the data were processed

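SP4 thymocytes of 9 samples (3 each of GFPlo, GFPmed and GFPhi) were profiled by RNA-seq from SMART-seq v4 cDNA and NexteraXT libraries, neither of which marks strand. The authors trimmed reads, aligned them with STAR 2.7.11b (GRCm38, GENCODE), dropped identical duplicates and deposited TPM, together with the mean normalized signal of each group (counts over DESeq2 1.34.0 size factors). Each pair of groups also has a log2 fold change, an adjusted p-value and a score that flags the authors' calls, all deposited by the authors and not used here. Group means and TPM allowed the reads of each sample to be solved (41578 genes solved, 400 not, 100% of values checked whole within 0.02 read). PCR duplicates carry no molecular identifier. Samples were grouped by their labels, and 0 sample columns were left unused.

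The 30693 genes that reached TPM 1 in 3 or more samples entered limma 3.58.1 (R 4.3.3) as log2(TPM + 1), a pseudocount that understates changes of low genes, with 1 mean per group over all 9 samples and eBayes with trend. Single genes and ratios had exact permutation tests in Python 3.11.15. The labels call replicates biological without naming animals, so p-values measure the spread between these samples. Exonic RPKM used GENCODE M21, an earlier release than the authors', on the same build. Members and lists were chosen with earlier results of these data known. The text names all members and ligands, called genes of the other lists (at most 4 each), markers, and the 3 genes most like each called member. Neighbours, overlapping genes, Relt, Tnfrsf13b, Traf4 and Birc3 were named after their values were seen. Ptcra, Krt5 and Tcrg-C1 of the marker lists were not analysed here. Alternatives were another pseudocount, filter, scaling, model or sample set.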

Additional observations from a re-analysis of the deposited data

How the results depend on the processing

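The 5 members called between GFPhi and GFPlo were called under each alternative fit and without each sample in turn (lowest and highest count 5), and 7 passed with no fold limit. Between GFPmed and GFPlo, 3 members became 1 with median-of-ratios scaling, with only the 2 groups compared, and with the replicate number as a block (1 member), and 1 to 3 without 1 sample. The cause was not tested. Samples with the same replicate number were not shown to be paired, though pairing was not excluded. The 9 correlations of their deviations from the group means ran from 0.0122 to 0.225 (mean 0.0609). For different numbers they ran from -0.185 to 0.148 (mean -0.0305), and 6 of 9 samples were closest to their own number. The block changed the calls over all genes to 346 up and 124 down for GFPhi against GFPlo, while 5, 5 and 0 members passed in GFPhi against GFPlo, GFPhi against GFPmed and the step difference, as without it. The count of all genes called between GFPmed and GFPlo went from 17 higher to between 2 (without GFPmed replicate 3) and 25 (limma-voom on solved reads and a pseudocount of 0.1), with 5 under the block. Limma-voom with library totals, added after seeing the data, called 1 member (Tnfrsf1b) for the step difference in place of 0, where it called 107 genes in all in place of 6, and shifted the median log2 fold change of all genes between GFPhi and GFPlo to -0.10.

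Values near 0 changed sign, none of them called. Tnfrsf1a between GFPmed and GFPlo (-0.02) became 0.0071 with median-of-ratios scaling, 0.0022 with limma-voom on solved reads and -0.089 to 0.062 without 1 sample. The step difference of Tnfrsf4 (0.05) ran from -0.12 to 0.29 without 1 sample. That of Tnfrsf18 (-0.02) became 0.020 with median-of-ratios scaling, 0.051 with limma-voom on solved reads, 0.097 with library totals and -0.14 to 0.18 without 1 sample, and that of Cd27 (-0.02) became 0.014, 0.044, 0.093 and -0.16 to 0.064 in the same order. The lowest read counts were those of Tnfrsf25 (29) and Tnfrsf9 (31), in GFPlo. The exact permutation test of trend still passed in 7 of 8 members with median-of-ratios scaling, Cd27 being lost (exact permutation p = 0.13). The share of all genes tested that pass this test was not computed. In the unscaled values GFPhi and GFPlo did not overlap in 18.2% of them.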
